A study of Mus musculus with 48 samples.

Results

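The genes examined here were neuroendocrine peptides of the hypothalamus, with a pair of their receptors. They were Avp (vasopressin), Oxt (oxytocin), Ghrh (growth hormone-releasing hormone), Gnrh1 (gonadotropin-releasing hormone), Kiss1 (kisspeptin), Tac2 (neurokinin B), Avpr1a (vasopressin receptor 1A) and Oxtr (oxytocin receptor). Members were chosen by name, through the RefSeq accession that the array design gives to each probe. Of these 8 genes 7 had such a probe, 1 probe each, so the data are 7 of 41174 probes and 7 of 18883 named genes. No probe carried an accession of Tac2, which was not analysed here.

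Expression was measured with one-colour Agilent arrays in frontal cortex and hypothalamus of 24 C57BL/6 mice, 8 per genotype, giving 48 arrays in 6 groups of 8. Per3 5/5 mice (labelled Boxhill) and Per3 4/4 mice (labelled Coach) were knock-ins (KI) homozygous for a Per3 gene in which a human exon with a tandem repeat of 5 or 4 units replaced the mouse exon, and WT mice carried the mouse gene. Both KI alleles were made by Cre recombination of a conditional construct, the WT line was bred from the same crosses, and Cre had been bred out of all of them. All mice were adults and all were killed at the end of 12 h of sleep deprivation in the light phase, so no value describes a rested animal and the age and sex of single mice were not given in the sources used here. Each tissue block held many cell types, and in such bulk samples fewer cells of a type and less RNA per cell cannot be told apart.

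As background, Avp and Oxt are made by magnocellular neurons of the paraventricular and supraoptic nuclei, whose axons release the hormones in the posterior pituitary, and Avp is also made by clock neurons of the suprachiasmatic nucleus. Ghrh neurons of the arcuate nucleus and Gnrh1 neurons of the preoptic area release their peptides into the portal blood of the anterior pituitary, and Kiss1 neurons drive the Gnrh1 neurons through the receptor Kiss1r. Avpr1a and Oxtr are G protein-coupled receptors through which vasopressin and oxytocin act on neurons in the brain itself.

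The promoters of 4 members are printed because the results below turn on them: Avp and Oxt for their high hypothalamic level, and Kiss1 and Oxtr for the members not higher in hypothalamus. Avp and Oxt are neighbours on chromosome 2. Each sequence is the 250 bases before the RefSeq gene start on the GRCm38.p6 assembly, 5′ to 3′ on the gene's strand, taken from RefSeq. They lie at chr2:130582589-130582838 (Avp, minus strand), chr2:130575919-130576168 (Oxt, plus strand), chr1:133326962-133327211 (Kiss1, plus strand) and chr6:112489826-112490075 (Oxtr, minus strand). Capitals mark the E-box CACGTG, the element bound by CLOCK and BMAL1, which reads the same on both strands.
Avp: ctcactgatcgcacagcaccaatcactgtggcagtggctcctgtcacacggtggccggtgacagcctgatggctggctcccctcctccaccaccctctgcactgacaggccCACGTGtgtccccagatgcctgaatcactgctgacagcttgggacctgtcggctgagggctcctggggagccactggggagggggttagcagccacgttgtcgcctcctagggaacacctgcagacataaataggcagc
Oxt: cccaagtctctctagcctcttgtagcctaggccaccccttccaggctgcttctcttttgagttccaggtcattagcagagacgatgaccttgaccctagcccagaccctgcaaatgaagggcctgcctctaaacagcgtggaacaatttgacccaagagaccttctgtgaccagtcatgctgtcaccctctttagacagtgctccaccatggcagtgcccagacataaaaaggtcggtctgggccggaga
Kiss1: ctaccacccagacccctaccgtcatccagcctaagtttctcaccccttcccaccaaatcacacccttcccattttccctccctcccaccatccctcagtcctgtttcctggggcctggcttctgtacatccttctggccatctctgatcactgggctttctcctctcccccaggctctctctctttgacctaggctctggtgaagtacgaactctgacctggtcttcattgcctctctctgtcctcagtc
Oxtr: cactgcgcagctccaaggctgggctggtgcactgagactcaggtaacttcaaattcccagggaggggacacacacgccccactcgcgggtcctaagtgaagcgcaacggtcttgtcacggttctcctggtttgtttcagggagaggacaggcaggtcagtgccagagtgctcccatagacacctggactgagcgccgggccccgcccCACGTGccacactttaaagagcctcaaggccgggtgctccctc
The E-box letters began 139 bases before the start of Avp and 43 bases before the start of Oxtr. They stood in no window of the other members that had one. Over the genome 6.02% of 32851 windows of this length held them. A match of letters is a description and not a binding site.

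Levels below are the log2 of the processed probe signal minus the log2 of the same array's 75th percentile, so that 0 is the brightness of a probe at that percentile. Levels of different probes are not comparable, and each gene is compared only with itself. The 75th percentile ran from 307 to 1884 intensity units over the 48 arrays and was highest in WT of both tissues. Arrays were scanned on 3 days: the first held 4 Per3 5/5 and 4 Per3 4/4 mice and no WT mouse, the second 3 Per3 4/4 and 5 WT mice, and the third 4 Per3 5/5, 1 Per3 4/4 and 3 WT mice. Scan day and genotype were thus partly confounded, and the members' genotype differences against WT are mostly also given from a fit with a scan-day term.

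The tissue labels were checked with marker genes other than the members. The summed level (the sum of unlogged levels over a list) of the 10 hypothalamus markers on the array was 118 to 254 over the 24 hypothalamus arrays and 0.262 to 0.947 over the 24 cortex arrays. All 9 that could be tested, among them Hcrt, Pmch and Nkx2-1, were higher in hypothalamus in each genotype. Otp, a defining transcription factor of paraventricular neurons, was not well above background in hypothalamus. The 6 cortex markers summed to 10.3 to 19.8 in cortex and 0.407 to 0.655 in hypothalamus. Lists of single nuclei were taken without the members. The paraventricular and supraoptic list summed to 2.44 to 5.98 in hypothalamus against 0.0332 to 0.14 in cortex. The arcuate list summed to 16.8 to 189 against 10.1 to 23.1, with overlapping ranges and group medians of 47.9 to 56.8 against 14.7 to 16.2. Its value of 189 came from WT hypothalamus replicate 8, which was also highest for the pituitary list. The suprachiasmatic list, whose Vip, Rorb and Grp are also cortical genes, was not higher in hypothalamus (3.91 to 6.15 against 6.26 to 11.2).

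Neighbouring tissue was uneven between arrays. The pituitary list summed to 747 in WT hypothalamus replicate 8 and 43.9 in Per3 5/5 hypothalamus replicate 8, against group medians of 1.9 to 3.31. The striatum list in cortex was highest in Per3 5/5 replicate 4 (5.19), Per3 4/4 replicate 2 (4.83) and WT replicate 3 (5.68), against group medians of 2.94 to 3.06. The thalamus list in hypothalamus ran from 8.64 to 24.9 and the choroid plexus list from 0.667 to 1.80. In every group all 4 Y-linked genes, and not Xist, passed the detection filter of 6 in 8 arrays.

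Vasopressin transcript was abundant in every hypothalamus and dim in cortex, where it was still well above background on all 24 arrays. The hypothalamic level of Avp was 5.51, 5.81 and 6.47 (lowest, median and highest of 8) in Per3 5/5 mice, 5.53, 5.83 and 6.30 in Per3 4/4 mice and 5.32, 5.68 and 6.22 in WT mice. The cortical level was -5.05, -4.61 and -2.91 in Per3 5/5 mice, -5.12, -4.73 and -3.01 in Per3 4/4 mice and -5.34, -4.95 and -4.50 in WT mice. The genotypes overlapped within each tissue, and the tissues were separated by 8.22 log2 units between the lowest hypothalamus and the highest cortex array. All 24 mice had more Avp signal in hypothalamus than in their own cortex, by 8.41 to 11.18 log2 units with a median of 10.53.

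Oxytocin transcript was abundant in every hypothalamus too. The hypothalamic level of Oxt was 6.05, 6.68 and 7.04 in Per3 5/5 mice, 5.98, 6.50 and 7.22 in Per3 4/4 mice and 5.24, 6.40 and 6.70 in WT mice. The cortical level was -3.11, -2.52 and -1.47 in Per3 5/5 mice, -3.26, -2.69 and -2.0 in Per3 4/4 mice and -3.34, -3.09 and -2.83 in WT mice. In hypothalamus the genotypes overlapped and WT replicate 3 lay lowest. In cortex the WT arrays kept to a narrow range in the lower part of both KI ranges, and Per3 5/5 replicate 7 lay highest, as it did for Avp.

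Ghrh, which releases growth hormone, varied more between hypothalami than the other 5 members detected on all 24 of them. Its hypothalamic level was 1.53, 2.54 and 2.96 in Per3 5/5 mice, 2.10, 2.55 and 3.77 in Per3 4/4 mice and 1.15, 2.59 and 3.18 in WT mice. The highest of the 24 hypothalami thus carried 6.15 times the signal of the lowest, against 2.22 times for Avp, 3.95 for Oxt, 3.86 for Gnrh1, 2.24 for Kiss1 and 2.17 for Avpr1a. The extremes were single animals, Per3 4/4 replicate 1 and WT replicate 3, and the 3 genotype ranges overlapped. In cortex Ghrh lay between -4.17 and -3.01.

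Gnrh1, made by few and scattered neurons, spread widely in cortex. Its hypothalamic level was -0.70, -0.30 and 0.79 in Per3 5/5 mice, -1.15, -0.48 and -0.29 in Per3 4/4 mice and -1.12, -0.49 and 0.80 in WT mice. The cortical level was -5.33, -4.62 and -1.55 in Per3 5/5 mice, -4.95, -4.51 and -2.17 in Per3 4/4 mice and -5.19, -4.27 and -1.79 in WT mice. Between the lowest hypothalamus and the highest cortex array 0.40 log2 units remained. The highest cortex array of each genotype was replicate 4 for Per3 5/5, replicate 2 for Per3 4/4 and replicate 3 for WT, the same 3 arrays that were highest for the striatum list. The part of neighbouring tissue in those Gnrh1 levels was not tested.

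Kiss1 differed from the other peptides, with cortical signal that matched or passed the hypothalamic one. Its hypothalamic level was -1.81, -1.17 and -0.79 in Per3 5/5 mice, -1.64, -1.21 and -0.65 in Per3 4/4 mice and -1.71, -1.28 and -1.18 in WT mice. The cortical level was -1.30, -0.62 and 0.04 in Per3 5/5 mice, -1.15, -0.63 and -0.12 in Per3 4/4 mice and -1.93, -1.35 and -0.76 in WT mice. The probe was well above background on all 48 arrays, and only 5 of 24 mice had more signal in hypothalamus than in cortex. In RefSeq the Kiss1 gene overlaps Golt1a, a Golgi transport gene, whose own probe lay at -3.80, -3.56 and -3.90 in hypothalamus and -1.83, -1.84 and -2.10 in cortex (group means of Per3 5/5, Per3 4/4 and WT). Whether Golt1a transcripts reach the Kiss1 probe was not tested.

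The receptors were dim. Avpr1a was well above background on 24 of 24 hypothalamus arrays, with levels from -2.78 to -1.67, but on only 10 of 24 cortex arrays, 2 of 8 in each KI and 6 of 8 in WT. Oxtr was well above background on 10 of 24 arrays in each tissue, and its levels, from -8.42 to -5.49 in hypothalamus and -7.63 to -3.86 in cortex, are therefore close to the floor. In hypothalamus Oxtr reached the detection filter in no genotype (1 of 8 in Per3 5/5, 4 of 8 in Per3 4/4 and 5 of 8 in WT), and it was left out of the genotype comparisons there. It entered the cortex comparisons through the 6 of 8 Per3 4/4 arrays on which it was detected.

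**Figure D1:**
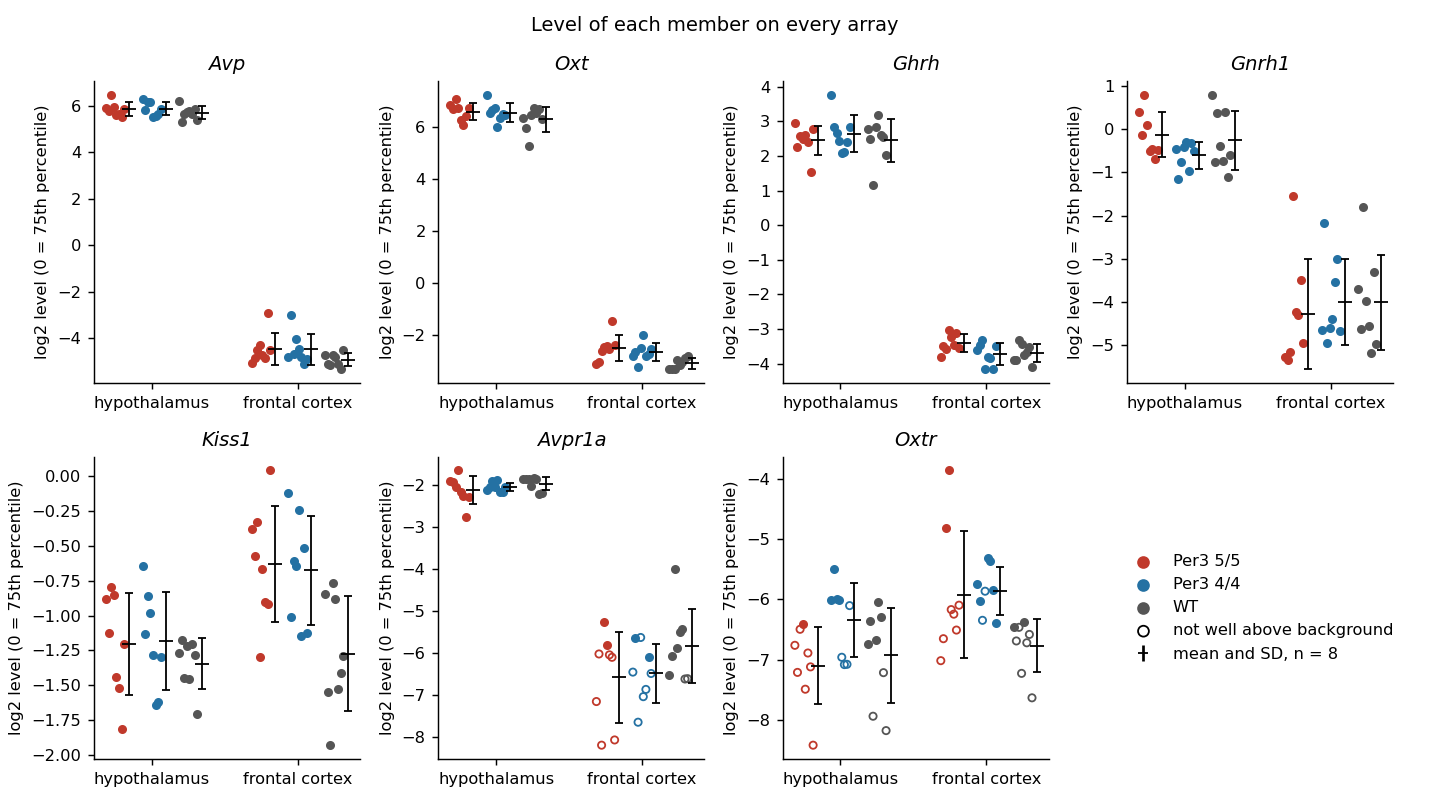
Level of each member (log2 processed signal minus log2 75th percentile of the array) in every array, by tissue and genotype, with the group mean and SD (n = 8). Avp, Oxt, Ghrh, Gnrh1 and Avpr1a separate the tissues without overlap, Kiss1 and Oxtr do not.

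The first comparison asked in which tissue each member was transcribed. A linear model (limma) over all 48 arrays gave the difference between hypothalamus and cortex within each genotype, with Benjamini-Hochberg adjustment over 31228 probes and a call at an adjusted p under 0.05. Of the 7 members, 7 were called in Per3 5/5, 6 in Per3 4/4 and 5 in WT mice. The Per3 5/5 count includes Oxtr, which was detected there on only 1 of 8 hypothalamus and 2 of 8 cortex arrays. Among all probes tested 50.1%, 51.1% and 51.9% were called, so a call by itself says little here and the size of the difference is what sets the peptides apart.

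Avp was 10.29 log2 units higher in hypothalamus in Per3 5/5, 10.35 in Per3 4/4 and 10.62 in WT mice (SE 0.22), folds of 1256, 1303 and 1573 with limma adjusted p-values of 2.49e-35, 1.99e-35 and 5.13e-36. Oxt was higher by 9.10, 9.21 and 9.38 (SE 0.19), folds of 548, 590 and 667. The median difference over all probes was between -0.02 and 0.03 log2 units. Ghrh was higher by 5.85, 6.37 and 6.15 (SE 0.21), folds of 57.8, 83.0 and 70.8. Gnrh1 was higher by 4.16, 3.39 and 3.76 (SE 0.43), folds of 17.9, 10.5 and 13.5. These 4 peptides were called as higher in hypothalamus in all 3 genotypes, and each was higher there in 24 of 24 mice.

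Avpr1a was the receptor with a hypothalamic pattern. It was higher in hypothalamus by 4.45, 4.43 and 3.87 log2 units (SE 0.32) in Per3 5/5, Per3 4/4 and WT mice. Because most cortex arrays did not detect it, the folds of 21.8, 21.6 and 14.6 rest on cortical values near background.

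Kiss1 and Oxtr were not higher in hypothalamus. Kiss1 was lower there by 0.58 log2 units in Per3 5/5 (SE 0.18, limma adjusted p = 0.00596) and by 0.51 in Per3 4/4 mice (SE 0.18, limma adjusted p = 0.0148). In WT mice its difference was -0.07 (95% interval -0.43 to 0.29, limma adjusted p = 0.777). Oxtr, detected on 1 of 8 hypothalamus and 2 of 8 cortex arrays of Per3 5/5 mice, was lower in hypothalamus by 1.18 in that genotype (SE 0.34, limma adjusted p = 0.00288), a call that was lost with another background correction, where the difference was -0.39 and the limma adjusted p 0.163. In Per3 4/4 and WT mice the Oxtr differences were -0.48 and -0.16 and were not called. Golt1a, the gene that overlaps Kiss1, was lower in hypothalamus by 1.97, 1.71 and 1.80.

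Whether these tissue differences themselves differed between genotypes was tested as an interaction. None of 21 interaction terms (7 members in 3 genotype pairs) was called in limma, where 0%, 0.016% and 0.0032% of all probes were called, and 1 of 21 had an unadjusted p under 0.05. That one was Oxtr in Per3 5/5 against WT (-1.02, limma unadjusted p = 0.0378, limma adjusted p = 1.0). For Kiss1 the term was -0.50 (95% interval -1.01 to 0.00) in Per3 5/5 against WT and -0.44 (-0.94 to 0.07) in Per3 4/4 against WT. The tissue difference of Kiss1, called in the KI mice and not in WT, was therefore not shown to differ between them.

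**Figure D2:**
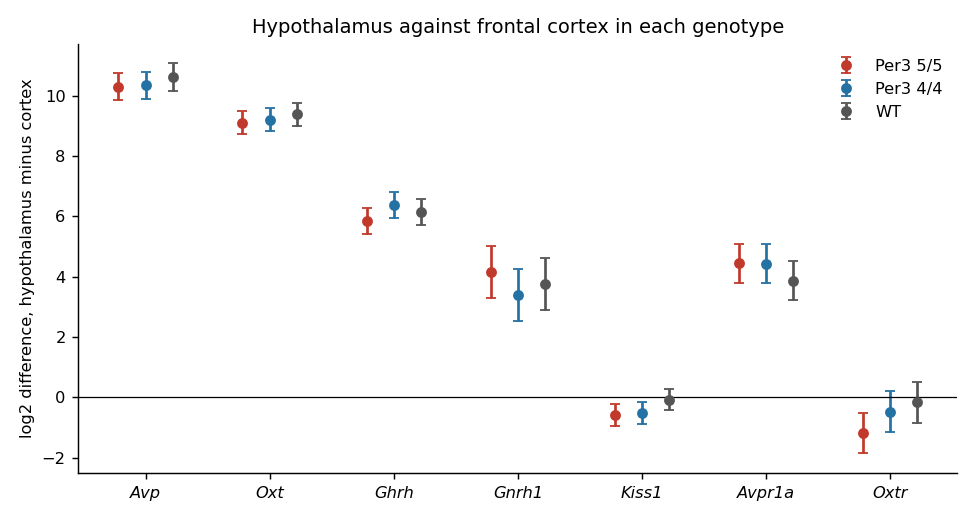
Hypothalamus minus cortex difference of each member in log2 units, by genotype, with 95% intervals from the linear model. Avp and Oxt lie between 9 and 11, Ghrh near 6, Avpr1a and Gnrh1 near 4, and Kiss1 and Oxtr at or below 0.

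The second comparison asked whether the human Per3 alleles changed these genes. In hypothalamus no member was called in any of the 3 genotype pairs, out of 6 tested. The share of all 30735 probes called was 0% for Per3 5/5 against Per3 4/4, 18.8% for Per3 5/5 against WT and 15.1% for Per3 4/4 against WT. No member had an unadjusted limma p under 0.05 in any pair either.

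The intervals give the size of change that these data still allow. For Avp the Per3 5/5 minus WT difference was 0.15 log2 units (95% interval -0.15 to 0.44) and the Per3 4/4 minus WT difference 0.19 (-0.11 to 0.48). For Oxt they were 0.30 (-0.09 to 0.70) and 0.27 (-0.13 to 0.66), and for Kiss1 0.14 (-0.17 to 0.46) and 0.16 (-0.15 to 0.47). With scan day as a block all 6 of these moved to between -0.14 and 0.02, in a fit that called 2.1% and 0.745% of all probes against WT. Avpr1a differed by -0.16 (-0.40 to 0.07) and -0.08 (-0.31 to 0.15), and by -0.20 in both with the scan-day term. Single markers of the nuclei that make Avp moved between the same groups. Of the 4 paraventricular and supraoptic genes tested, Avp and Oxt among them, Sim1 was the only call. The median difference of these 4 was 0.07 in Per3 5/5 and 0.12 in Per3 4/4 mice. Since it includes Avp and Oxt themselves, it does not describe these nuclei apart from the members. Sim1, of paraventricular neurons, differed from WT by -1.45 in Per3 5/5 and -1.52 in Per3 4/4 mice (limma adjusted p = 0.0474 and 0.0444, -0.26 and -0.35 and no call once scan day entered the fit). Six6, of suprachiasmatic neurons, differed by -0.97 and -0.72 (limma adjusted p = 0.00247 and 0.0168, still called with that block). The calls of the suprachiasmatic list were not all in 1 direction. Lhx1 was higher (0.40, limma adjusted p = 0.0204, no call with the scan-day term) and Grp lower in Per3 5/5 mice, and the other genes of the list were not called. The median difference of the 6 tested was -0.35 in Per3 5/5 and -0.37 in Per3 4/4 mice, beside 0.03 and 0.02 over all probes. Of these 6, 4 and 3 had an unadjusted limma p under 0.05. The part of the cells that these markers stand for in the Avp and Oxt levels was not tested.

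Ghrh and Gnrh1, with their wider spread, were bounded less tightly. Ghrh differed from WT by 0.00 (-0.53 to 0.52) in Per3 5/5 and 0.20 (-0.33 to 0.72) in Per3 4/4 mice, or by -0.28 and -0.02 with the scan-day term. The largest hypothalamic difference between the KI genotypes was that of Gnrh1, 0.48 higher in Per3 5/5 than in Per3 4/4 mice (-0.04 to 1.0, limma adjusted p = 0.334). After adding a scan-day term it was 0.63 (limma adjusted p = 0.410). On the first scan day alone, with 4 mice of each, it was 0.98, and the 4 Per3 5/5 arrays, from -0.14 to 0.79, all lay above the 4 Per3 4/4 arrays, from -1.15 to -0.40. The limma adjusted p was 1.0 there.

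In cortex the KI genotypes did not differ by a call in any of 7 members, and 0% of 29715 probes were called. The nearest to a call was Ghrh, 0.32 higher in Per3 5/5 (95% interval 0.03 to 0.61, limma adjusted p = 0.294). Against WT, 2 of 7 members were called in Per3 5/5 mice, where 12.4% of all probes were called, and 1 of 7 in Per3 4/4 mice, where 22.5% were. All 3 calls were for higher signal in the KI mice, and they concerned Kiss1 and Oxt. Of the 7, Oxtr passed the detection filter through the Per3 4/4 arrays and Avpr1a through the WT arrays alone, so these counts are a description.

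Kiss1 was the member called against WT in both KI genotypes. Its cortical signal was 1.57-fold that of WT in Per3 5/5 mice (log2 0.65, SE 0.20, limma adjusted p = 0.0343) and 1.52-fold in Per3 4/4 mice (0.60, SE 0.20, limma adjusted p = 0.0310). The median WT array (-1.35) lay below every Per3 5/5 and Per3 4/4 array, although the ranges overlapped. Both comparisons use the same 8 WT arrays. Golt1a differed in the same arrays and the same direction by 0.27 (limma adjusted p = 0.137) and 0.26 (limma adjusted p = 0.130), neither called. With a scan-day term it differed by 0.34 and 0.33, not called either. With another background correction (normexp) it differed by 0.29 and 0.36 (limma adjusted p = 0.0453 and 0.00695), both called. That correction also moved the median of all probes to 0.15 and 0.23.

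Scan day did not remove the size of the Kiss1 difference but did remove the calls. With scan day as a block the differences were 0.70 (limma adjusted p = 0.110) and 0.58 (limma adjusted p = 0.108), in a fit that called 0.986% and 7.72% of all probes. Within the third scan day Per3 5/5 mice (n = 4) exceeded WT (n = 3) by 0.80, and within the second Per3 4/4 mice (n = 3) exceeded WT (n = 5) by 0.56, with limma adjusted p-values of 0.147 and 0.336. The calls also lay close to the threshold, so that leaving out 1 array could end them while the difference stayed. That of Per3 5/5 was lost on leaving out any of 9 arrays (Per3 5/5 replicates 1, 2, 3 and 5 or WT replicates 2, 3, 6, 7 and 8), with differences of 0.55 to 0.74 over all 24 such fits. That of Per3 4/4 was lost on leaving out any of 7 (Per3 4/4 replicates 1, 3 and 5 or WT replicates 2, 3, 6 and 7), with differences of 0.51 to 0.67.

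Oxt, at its very low cortical level, was 1.5-fold that of WT in Per3 5/5 mice (log2 0.59, SE 0.18, limma adjusted p = 0.0370). In Per3 4/4 mice it was 0.44 above WT (95% interval 0.07 to 0.81, limma adjusted p = 0.0786), which was not called. In the fit with a scan-day term the differences were 0.70 (limma adjusted p = 0.0605) and 0.65 (limma adjusted p = 0.0275), so that the call passed from one genotype to the other. Leaving out any of 7 arrays (Per3 5/5 replicates 3, 4 and 5 or WT replicates 1, 2, 3 and 5) ended the Per3 5/5 call, with differences of 0.44 to 0.67 over all 24 fits.

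One cortex array stood out among the peptides. Per3 5/5 cortex replicate 7 had the highest cortical Avp (-2.91) and Oxt (-1.47) of all 24 mice, and its summed hypothalamus markers were 0.947, against 0.262 to 0.428 in the WT and Per3 4/4 cortex arrays. Without it the Per3 5/5 minus WT difference of Oxt was 0.44 (limma adjusted p = 0.0496). The group medians of the summed markers in cortex were 0.402 in Per3 5/5, 0.357 in Per3 4/4 and 0.324 in WT mice. The median cortical Oxt levels (-2.52, -2.69 and -3.09) had the same order. In Per3 4/4 mice replicate 5 was highest for both. Without that array the Per3 4/4 minus WT difference of Oxt was 0.35 (limma adjusted p = 0.1525). In WT mice replicate 3 was highest for the markers and lowest for Oxt. The part of hypothalamic tissue in the cortical Oxt signal, or in its genotype differences, was not tested.

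The other cortical members were not called. Avp differed from WT by 0.47 in Per3 5/5 and 0.46 in Per3 4/4 mice, and by 0.32 and 0.38 with the scan-day term. Ghrh differed by 0.29 and -0.03, and by 0.22 and -0.06 with that term. Gnrh1 differed by -0.28 and 0.01, and by 0.10 and 0.13 with it. The receptors cannot be compared on equal terms, because most of their cortical values were not above background. Oxtr was detected on 2 of 8 Per3 5/5, 6 of 8 Per3 4/4 and 2 of 8 WT arrays, and its differences of 0.85 and 0.90 (1.02 and 0.84 with the scan-day term) set values near background against each other. For Avpr1a the differences were -0.75 and -0.65 (-0.68 and -0.67 with that term), with detection on 2 of 8 arrays in each KI and 6 of 8 in WT.

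**Figure D3:**
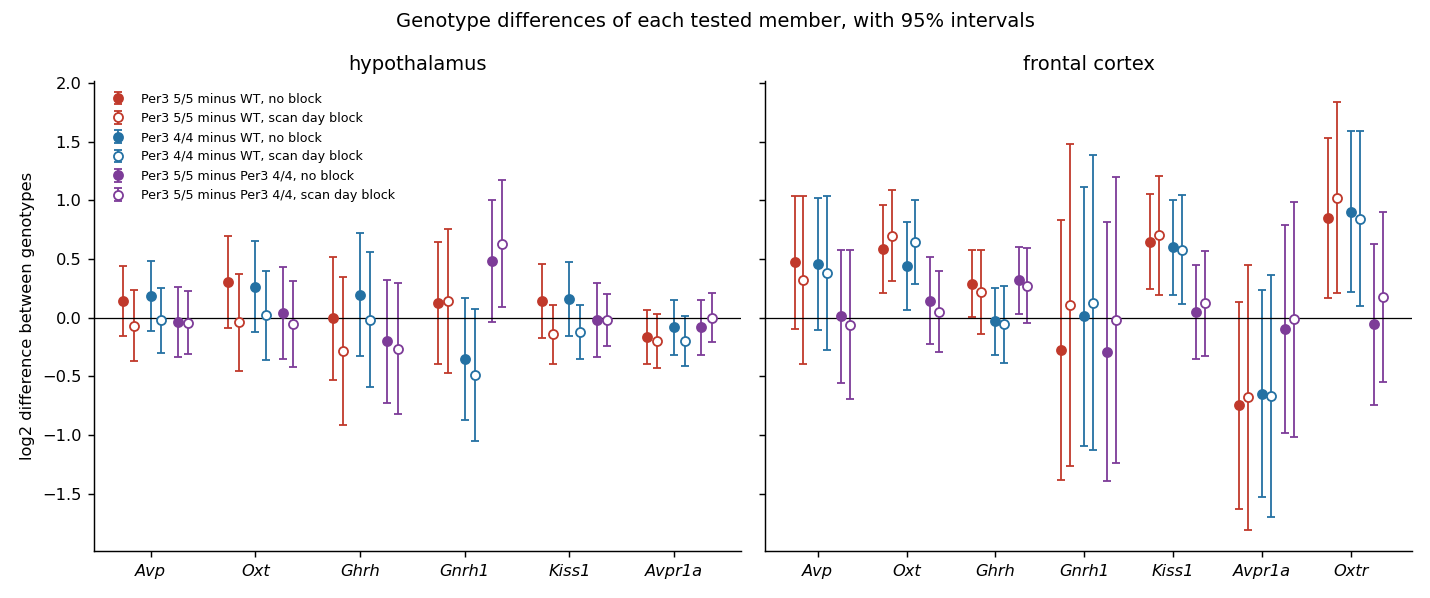
Genotype differences of each member in log2 units with 95% intervals, in hypothalamus and cortex, from the linear model with and without scan day as a block. In hypothalamus every interval without the block includes 0, and in cortex those of Kiss1, Oxt and the mostly undetected Oxtr against WT lie above 0 in both KI genotypes, of which Kiss1 in both and Oxt in Per3 5/5 passed adjustment.

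Scan day was examined further because the hypothalamic members moved with it. Among the 16 KI mice, with genotype kept as a term, arrays of the first scan day were compared with those of later days; this comparison was chosen after the values were seen. Kiss1 was higher on the first day by 0.57 log2 units (limma adjusted p = 0.00114), Oxt by 0.46 (limma adjusted p = 0.0119) and Avp by 0.42 (limma adjusted p = 0.00949). These were 3 of 6 members tested, where 29.4% of all probes were called. Ghrh (0.40), Gnrh1 (0.32) and Avpr1a (0.26) were not called.

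For Kiss1 the split by day was complete within each KI genotype. The first-day mean was -0.91 in both, against -1.50 for Per3 5/5 on the third day and -1.52 for Per3 4/4 on the second, and the lowest first-day array (-1.13) lay above the highest later one (-1.21). WT mice, all scanned later, had means of -1.31 and -1.40. In cortex no member of 7 was called between days, where 22.5% of all probes were. Whether the day stands for scanning, dissection or another step cannot be told apart, since the files give only the time of the scan.

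**Figure D4:**
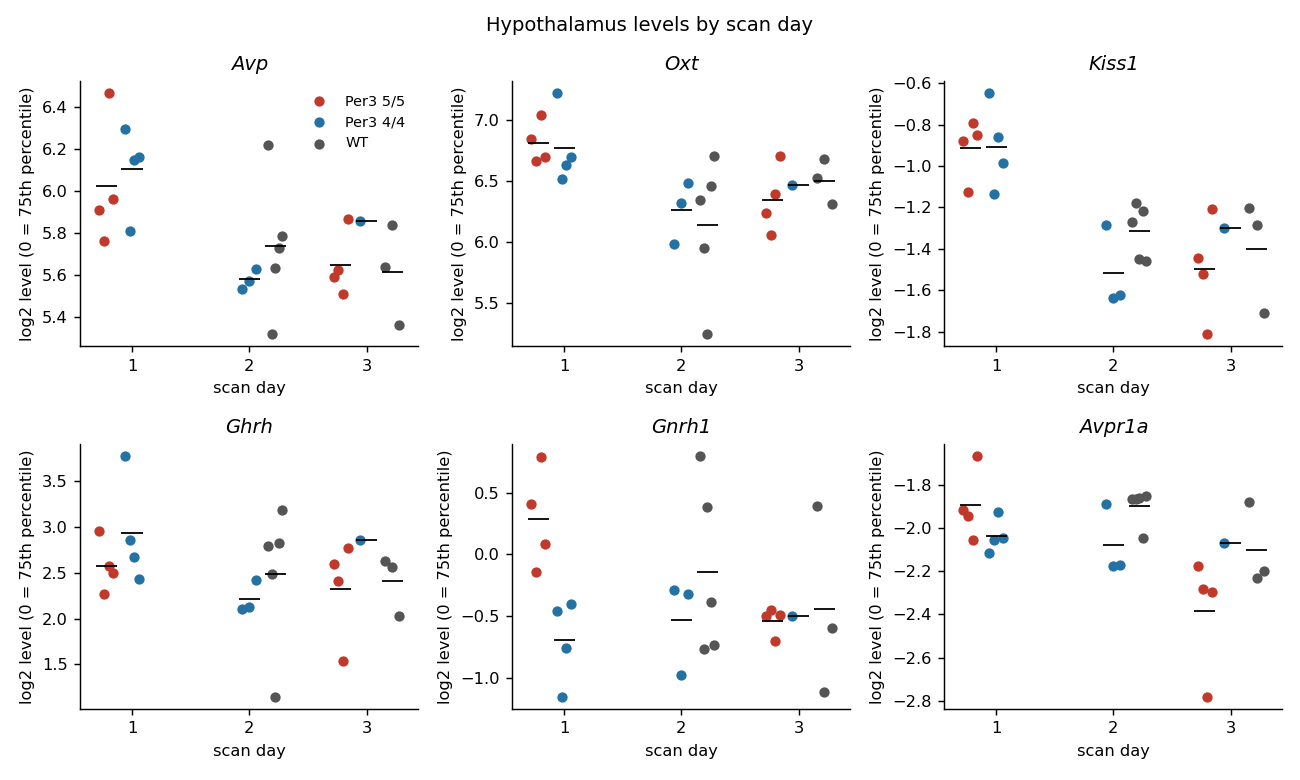
Hypothalamic level of the members (log2, relative to the 75th percentile) by scan day, each point 1 mouse coloured by genotype. Kiss1, Avp and Oxt of the KI mice lie higher on the first day than on later days, and no WT mouse was scanned on the first day.

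The third comparison asked whether members made in the same or neighbouring nuclei rose and fell together from mouse to mouse. Of 6 planned pairs 4 could be run over the 24 hypothalamus arrays, since Tac2 was not measured, and p-values come from 100000 permutations, adjusted over the 4 pairs. Avp and Oxt were correlated (Pearson's r = 0.65, permutation p = 0.00049, adjusted 0.00196; Spearman's rho = 0.77, permutation p = 5e-05, adjusted 0.0002). Without the 2 arrays farthest from the Avp median r was 0.51. Centred on genotype r was 0.62 and centred on scan day 0.47 (permutation p = 0.0196).

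Within single scan days of 8 mice the Avp-Oxt relation was 0.72 (exact permutation p = 0.0441), 0.34 (exact permutation p = 0.363) and 0.62 (exact permutation p = 0.105). Taken by genotype, r reached 0.84 among Per3 5/5, 0.87 among Per3 4/4 and 0.31 among WT mice. The difference between these was not tested. The relation therefore kept its sign in every subset named here, and its size varied.

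Ghrh and Kiss1, both peptides of the arcuate nucleus, were correlated with r = 0.58 (permutation p = 0.00265, adjusted 0.0053) and rho = 0.48 (permutation p = 0.0165, adjusted 0.0331). Without the 2 arrays farthest from the Ghrh median r was 0.50. Centred on scan day it was 0.56 (permutation p = 0.0034). Within days r was 0.63 (exact permutation p = 0.0921), 0.25 (exact permutation p = 0.574) and 0.92 (exact permutation p = 0.00164), so the third day carried the closest relation. Pairs from different nuclei were as close: centred on genotype, r was 0.75 for Oxt with Ghrh and 0.73 for Avp with Kiss1, against 0.58 for Ghrh with Kiss1 and 0.62 for Avp with Oxt.

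The ligand and receptor pairs were not correlated past the threshold. For Avp and Avpr1a r was 0.22 and rho 0.22 (permutation p = 0.295 and 0.301, adjusted 0.295 and 0.301). It was 0.31 without the 2 farthest arrays and -0.40, 0.16 and 0.26 within the 3 days. For Oxt and Oxtr r was 0.39 and rho 0.35 (permutation p = 0.0587 and 0.094, adjusted 0.0782 and 0.125). It was 0.15 without the 2 farthest arrays and -0.13, 0.73 and -0.13 within days, with Oxtr detected on 10 of the 24 arrays.

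**Figure D5:**
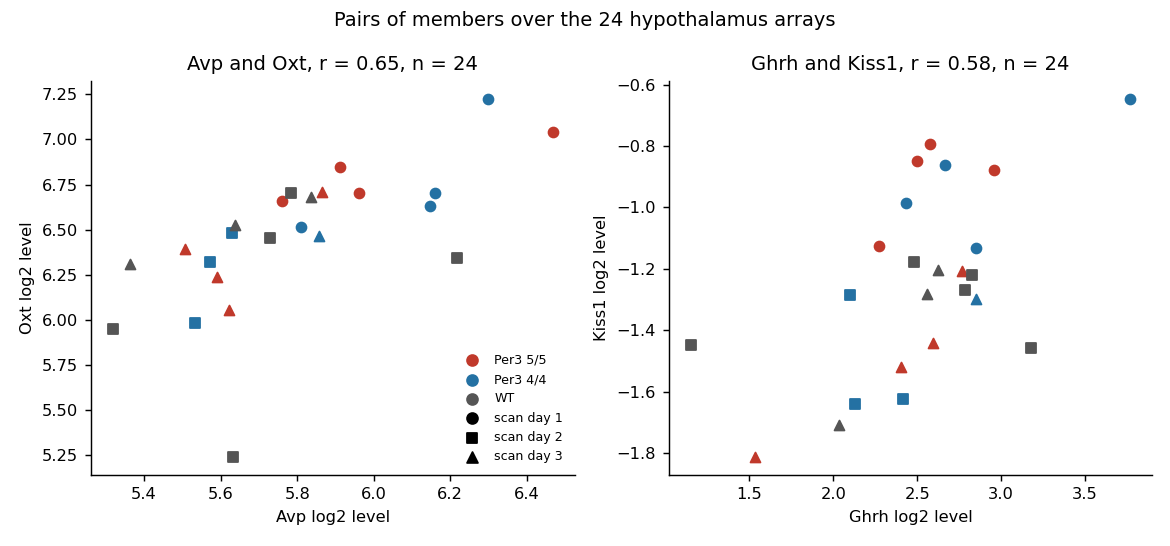
Hypothalamic levels of Avp against Oxt and of Ghrh against Kiss1 (log2, relative to the 75th percentile), each point 1 of 24 mice, coloured by genotype and marked by scan day. Both pairs rise together (r = 0.65 and 0.58). The ligand and receptor pairs are not drawn.

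The genes most like each member were ranked by r over the 24 hypothalamus arrays, after centring on genotype, among 22590 named probes. They are given as a description. Oxt was closest to Pcsk1n (r = 0.93, 0.81 after centring on scan day instead), which encodes proSAAS, a granule protein that inhibits a prohormone convertase, and to Ruvbl2 (0.92) and Atp13a1 (0.91). Ghrh was closest to Bcs1l (0.90), Isyna1 (0.90) and Flot1 (0.87). Avp was closest to Ebf4 (0.81), Exosc2 (0.79) and Poll (0.77), which fell to 0.35, 0.62 and 0.37 after centring on scan day. Kiss1 was closest to Exosc2 (0.90), Sec14l3 (0.89) and Ciao3 (0.88), Gnrh1 to Htr1a (0.69), Fam210a (0.69) and Rftn1 (0.69), and Avpr1a to Hspa4l (0.88), Dync1i1 (0.88) and Ddc (0.87). Members were not each other's closest: Kiss1 ranked 8 and Oxt 157 on the list of Avp, Avp ranked 1630 on that of Oxt, and Kiss1 ranked 1521 on that of Ghrh.

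Other peptides of the same neuroendocrine system give the setting. Of 20 listed genes 17 were on the array. Higher in hypothalamus were 12 in Per3 5/5 and WT and 13 in Per3 4/4 mice, led by the lateral hypothalamic peptides Pmch (9.96 in WT) and Hcrt (9.80), followed by Agrp (6.60) and Npvf (6.59). Lower were 3 in each genotype, among them Npy and Vip in all, which cortical interneurons also express. Of all probes 50.1%, 51.1% and 51.9% were called in either direction in Per3 5/5, Per3 4/4 and WT mice. Those called as higher were 7999, 8450 and 8767 of 31228, and those called as lower 7633, 7514 and 7430. The hypothalamic differences of Avp (10.62) and Oxt (9.38) in WT thus had the size of those of Pmch and Hcrt, and the median of the 17 was 4.64 beside 0.03 over all probes.

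Between genotypes 4 calls were made among these peptides. In hypothalamus Hcrt (0.70, limma adjusted p = 0.0131) and Ucn3 (0.71, limma adjusted p = 0.0358) were higher in Per3 4/4 than in WT mice, and Grp was lower in Per3 5/5 mice (-0.46, limma adjusted p = 0.0202), out of 17 tested. These 2 of 17 and 1 of 17 stand beside 15.1% and 18.8% of all probes. In cortex Hcrt was higher in Per3 5/5 than in WT mice (0.64, limma adjusted p = 0.0277), 1 of 15 beside 12.4% of all probes, and none was called in Per3 4/4 mice. None of these 4 calls outlasted a scan-day term. The KI genotypes were not separated by a call for any peptide of the list, in either tissue.

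Among receptors of the system, 23 of 24 listed genes were on the array, and Kiss1r, the kisspeptin receptor, was the one called against WT in both KI genotypes and both tissues. In hypothalamus the lowest and highest Kiss1r levels were -3.32 and -2.12 in Per3 5/5, -3.02 and -2.58 in Per3 4/4 and -3.74 and -3.26 in WT mice. In cortex they were -3.41 and -2.58, -2.89 and -2.39, and -3.81 and -2.98. The Per3 4/4 and WT ranges did not overlap in either tissue. The Kiss1r differences from WT were 0.72 (limma adjusted p = 0.00187) and 0.67 (limma adjusted p = 0.00542) in hypothalamus and 0.48 (limma adjusted p = 0.0189) and 0.73 (limma adjusted p = 0.00128) in cortex, for Per3 5/5 and Per3 4/4. Fitted with a scan-day term, 3 of the 4 were still called (limma adjusted p = 0.0368, 0.0489 and 0.0133) and Per3 5/5 in cortex was not (0.189).

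Of the 21 receptors tested in hypothalamus, Tacr1, a receptor for tachykinins, was also higher in Per3 5/5 (0.46, limma adjusted p = 0.00355) and Per3 4/4 mice (0.31, limma adjusted p = 0.0323), and Prokr2 was lower in Per3 5/5 mice (-0.56, limma adjusted p = 0.0151). With the scan-day term Tacr1 in Per3 5/5 mice was still called (limma adjusted p = 0.0338), while Tacr1 in Per3 4/4 mice (0.12) and Prokr2 (0.0942) were not. Counting Kiss1r, 2 of the 21 were higher and 1 lower in Per3 5/5 mice, and 2 were higher in Per3 4/4 mice. Of all probes 18.8% and 15.1% were called there. Of 19 tested in cortex, the somatostatin receptor Sstr1 was higher in both KI genotypes (0.56 and 0.58) and Sstr3 in Per3 4/4 mice (0.61), and a scan-day term ended all 3 calls. With Kiss1r, 2 of the 19 were called in Per3 5/5 and 3 in Per3 4/4 mice, beside 12.4% and 22.5% of all probes. Between tissues 12 of 21 receptors were higher in hypothalamus in each genotype, among them Galr1, Tacr3 and Vipr2, and Crhr1 was lower in Per3 4/4 and WT mice and Pgr in WT mice. In Per3 5/5, Per3 4/4 and WT mice 50.1%, 51.1% and 51.9% of all probes were called in either direction. Called as higher in hypothalamus were 7999, 8450 and 8767 of 31228 probes. No receptor was called between the KI genotypes.

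Of 14 genes of peptide processing and secretory granules 13 were on the array, and all 13 were tested. Against WT, 18.8% and 15.1% of all probes were called in hypothalamus and 12.4% and 22.5% in cortex, for Per3 5/5 and Per3 4/4. Pcsk1n was higher in KI than in WT mice in all 4 comparisons, by 0.47 and 0.55 in hypothalamus and 0.44 and 0.43 in cortex for Per3 5/5 and Per3 4/4 (limma adjusted p = 0.0360, 0.0225, 0.0176 and 0.0117). Once scan day entered the fit none of the 4 was called, and 1 other setting turned its sign in hypothalamus. Scg5 (-0.45, limma adjusted p = 0.00999) and Chgb (-0.52, limma adjusted p = 0.0426) were lower in Per3 5/5 than in WT hypothalamus. In Per3 4/4 cortex Scg3 was higher (0.22) and Cadps lower (-0.23) than in WT. With the scan-day term the calls of Scg5 (limma adjusted p = 0.0974), Chgb (0.137) and Scg3 (0.136) were lost and that of Cadps was kept (0.0295), and Chgb was called under 5 of 13 alternatives and turned its sign under 1. The convertase Pcsk1, which cuts prohormones, was higher in hypothalamus than in cortex by 1.96 in WT mice, while Pcsk2 was lower by 1.19.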

How the data were processed

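RNA of frontal cortex and hypothalamus blocks from 24 mice was labelled with Cy3 by the authors and hybridised to 48 one-colour Agilent whole-mouse-genome arrays. Per the file headers, the deposited intensity values are processed signals, background-subtracted by Feature Extraction 10.7.1.1. The series table of log2 values, normalised by the authors, was used only as an alternative. Groups came from the labels.

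Control spots and outlier spots (48 to 172 per array) were left out, no spot was saturated, and spots of a probe were averaged. Values were log2 processed intensity minus the log2 75th percentile of the array. A probe was tested when 6 or more of the 8 arrays of any group had it well above background: 29715 in cortex, 30735 in hypothalamus and 31228 in both. Tests were two-sided in limma 3.58.1 (R 4.3.3) with Benjamini-Hochberg adjustment, called at an adjusted p under 0.05, and were tested on simulated data. Probes were matched to RefSeq by accession. The members and the gene lists (other peptides, receptors, processing and granule genes, markers of brain regions, pituitary, choroid plexus and sex) were chosen with earlier results of these data known. Every member was named, every called gene of the 3 pathway lists between genotypes, and the 3 genes most like each member. Each tissue of a mouse gave 1 array, so n is 8 mice per group, and this number limits the precision. Correlations used permutations in scipy 1.17.1.

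Alternatives were another scaling, normexp background correction (offset 50), the series table, other filters, scan day or slide as a block, the replicate block, the methods' t-test and each array left out. Normexp used the median signal and background, since no mean signal was in the files. Both tissues came from the same mice, which pairs them, and a mouse block changed no call of a member between tissues. Same-numbered mice of different genotypes share only a number (correlations of deviations from -0.42 to 0.518). Tac2 was not analysed here.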

Additional observations from a re-analysis of the deposited data

Results flagged for a closer look

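Of 42 groups of 8 arrays (7 members, 2 tissues, 3 genotypes), 5 held 1 array far from the other 7, where chance alone gives about 1 in 20. Avp in Per3 5/5 hypothalamus replicate 3 was 6.47, with the next array at 5.96. Avp in Per3 5/5 cortex replicate 7 was -2.91, with the next at -4.28. Oxt in the same cortex array was -1.47, with the next at -2.40, and this array also had the highest summed hypothalamus markers of the cortex arrays (0.947). Ghrh in Per3 4/4 hypothalamus replicate 1 was 3.77, with the next at 2.85. Avpr1a in WT cortex replicate 3 was -4.02, with the next at -5.45, and this array was also the highest WT cortex array for Gnrh1 (-1.79) and for the summed striatum markers (5.68).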

How the results depend on the processing

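The tissue differences were the least sensitive to processing: the same members were called under each of the 6 alternatives, mouse as a replicate block included, except Oxtr in Per3 5/5 mice, where normexp gave -0.39. In hypothalamus 0 members were called between genotypes under every alternative run. The cortex calls depended on the setting. For Per3 5/5 against WT the 2 members called became 0 with scaling to the median, quantile normalisation, scan day as a block, slide as a fixed or random block, 1 scan day alone and the methods' t-test, and 5 with normexp, with 0 to 2 on leaving out single arrays. For Per3 4/4 against WT the 1 member called became 0 with scaling to the median, slide as a fixed block and 1 scan day alone, 2 with quantile normalisation and with the replicate block, 3 with the methods' t-test and 6 with normexp, with 0 to 2 on leaving out single arrays. The replicate block concerns numbers that do not pair the mice. Normexp shifted the median of all probes against WT in cortex to 0.15 and 0.23 log2 units and called 31.4% and 54.7% of all probes, so its member calls are to be read against that shift. Scan day as a block lowered the calls over all probes in hypothalamus from 5788 to 644 (Per3 5/5 against WT) and from 4628 to 229 (Per3 4/4 against WT), and in cortex from 3670 to 293 and from 6696 to 2294. With 1 scan day alone at most 164 probes were called in any pair.

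Some cortical differences turned sign. Avp in Per3 5/5 against WT was -0.28 with slide as a fixed block, although no slide held both genotypes. Ghrh in Per3 4/4 against WT (-0.03) was 0.32 with normexp, 0.0627 with slide as a fixed block and -0.0906 to 0.0312 on leaving out single arrays. Avpr1a in Per3 4/4 against WT (-0.65) was 0.66 with normexp, a probe mostly not above background. Of 52 member differences called under no alternative, 32 changed sign under at least 1. Among correlations, Avp-Oxt was 0.34 and 0.62 on the second and the third scan day, and Ghrh-Kiss1 0.63 and 0.25 on the first and the second, each with 8 mice and past no threshold. Avp-Avpr1a was -0.40 on the first day. Oxt-Oxtr was 0.43 centred on genotype, where it passed the threshold (permutation p = 0.0344), -0.0311 with normexp and -0.13 on the first and the third day. The causes of these changes were not tested.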
